A study of Schizosaccharomyces pombe with 8 samples.

Results

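The large ribosomal RNA gene SPRRNA.49 and the genes of 3 small nucleolar RNAs (snoRNAs) that serve pre-rRNA processing, snu3, snoU14 and snR10, each lay under a peak of Pac1-TAP on fission yeast (Schizosaccharomyces pombe) chromatin. They were chosen by name from the list of 166 genes paired with Pac1-TAP peaks, with their peaks already known, so that the presence of a peak, its listed p-value and its width are descriptions and not findings. The list came from chromatin immunoprecipitation sequencing (ChIP-seq), which sequences the DNA crosslinked to a protein. It was made from 2 immunoprecipitates of Pac1 and their 2 inputs (DNA before immunoprecipitation), from the strain with mating type h+, the markers ade6-M216, leu1-32, ura4-D18 and his3-D1, and Pac1-TAP-natMX6. In this strain Pac1 carries a TAP tag and is expressed from its own locus, and the cells were grown without drug in minimal medium (EMM) at 30 °C. No untagged strain was analysed here, and the input was the only background. The other 4 libraries of the series, immunoprecipitates and inputs of RNA polymerase II (RNAPII) from a control and a Pac1-AA strain given rapamycin, had no values used here. The list gave 1 combined p-value per peak for both replicates and no value per library, no height and no summit, so that no spread between replicates and no depth could be given, and a difference between genes in any value below has no error.

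Ribosomal RNA is made by RNA polymerase I as a long precursor that holds the 18S, 5.8S and 28S RNAs, separated by internal transcribed spacers and flanked by external transcribed spacers (ETS). Several snoRNAs serve the cleavage of this precursor, U3, U14 and snR10 among them, and their roles are known mainly from budding yeast. U3 and U14 belong to the box C/D family, named for 2 short conserved boxes, and snR10 belongs to the box H/ACA family; each works in a particle with its own set of core proteins. Pac1 is an endonuclease of the RNase III family, which cuts double-stranded RNA stems, and the 3′ ETS of the rRNA precursor, downstream of the 28S RNA, folds into such a stem.

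The RNAs of the 3 snoRNA genes are printed below as DNA, 5′ to 3′ on the transcribed strand, because the position of each peak was measured against them. In snu3 and snoU14 the capitals mark letters that matched a search for box C (TGATGA, searched as NTGATGA) and for box D (CTGA), on the transcribed strand. A match is to letters only. In snu3 the marked TGATGA was not shown to be box C, so that its distance from CTGA is not given as one between boxes C and D. In snR10 they mark the last 10 bases, which the peak did not cover. The sequences are from RefSeq, assembly ASM294v3.
snu3 (I:987692-987947, minus strand): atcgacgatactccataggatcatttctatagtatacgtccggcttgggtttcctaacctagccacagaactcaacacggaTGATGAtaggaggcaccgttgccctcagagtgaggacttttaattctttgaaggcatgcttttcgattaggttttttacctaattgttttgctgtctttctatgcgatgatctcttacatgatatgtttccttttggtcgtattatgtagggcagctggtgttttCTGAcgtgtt
snoU14 (II:1308634-1308745, plus strand): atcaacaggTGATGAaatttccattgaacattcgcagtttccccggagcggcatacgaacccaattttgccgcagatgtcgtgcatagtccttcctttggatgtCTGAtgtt
snR10 (III:992436-992602, plus strand): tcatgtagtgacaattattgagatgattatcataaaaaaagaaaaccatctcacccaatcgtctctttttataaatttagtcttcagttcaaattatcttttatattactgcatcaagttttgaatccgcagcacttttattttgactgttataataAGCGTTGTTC
The match to NTGATGA, its free base included, began at base 81 and that to CTGA at base 247 of the 256-nt snu3 RNA. In the much shorter snoU14 RNA, of 112 nt, they began at bases 9 and 105. The 2 motifs in this order were found in 27 of the 66 annotated snoRNA sequences (40.9%), and no match in a sequence says only that these letters were not in it. The snR10 RNA was 167 nt long with a GC content of 28.7%, against 46.4% in snoU14 and 41.8% in snu3. Its strand was taken from the list and the annotation. The letters ACANNN, searched for at the end as the ACA box, closed 11 of the 66 sequences (16.7%). They did not close the printed snR10 sequence, but its reverse complement does end with them. Which strand the RNA is made from was not tested. On the other strand the 5′ and 3′ sides of snR10 below would swap, and its structures would be others.

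The peak over the rRNA gene was the widest of the 4. It spanned III:2443033-2447907, 4875 bp, with a listed p-value of 0, which is the value that 34 of the 88 peaks carried and so cannot be ranked. Of the 88 peaks, 1 was wider. SPRRNA.49 (III:2443713-2447197, plus strand, 3485 bp, the 28S rRNA) lay whole inside it and made up 71.5% of it. The peak reached 680 bp before the 5′ end of the gene and 710 bp past its 3′ end, and its centre lay 15 bp from the middle of the gene. This centre is the midpoint of the called bounds and not a summit. From its read coverage, the paper reports Pac1 binding on the rDNA at the 3′ ETS, past the large rRNA gene. Where the signal was highest within the bounds was not tested here. The reach past the 3′ end took in the 3′ ETS stem described below. The reach before the 5′ end took in the whole 5.8S gene SPRRNA.52 (III:2443248-2443412, plus strand, 165 bp), which the list did not pair with the peak, and the internal spacers on both sides of it. The peak started 197 bp past the end of the 18S gene SPRRNA.46 and did not touch it. By annotated class, 71.5% of the peak was 28S gene, 3.38% was 5.8S gene and 25.1% was outside any annotated gene.

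**Figure D1:**
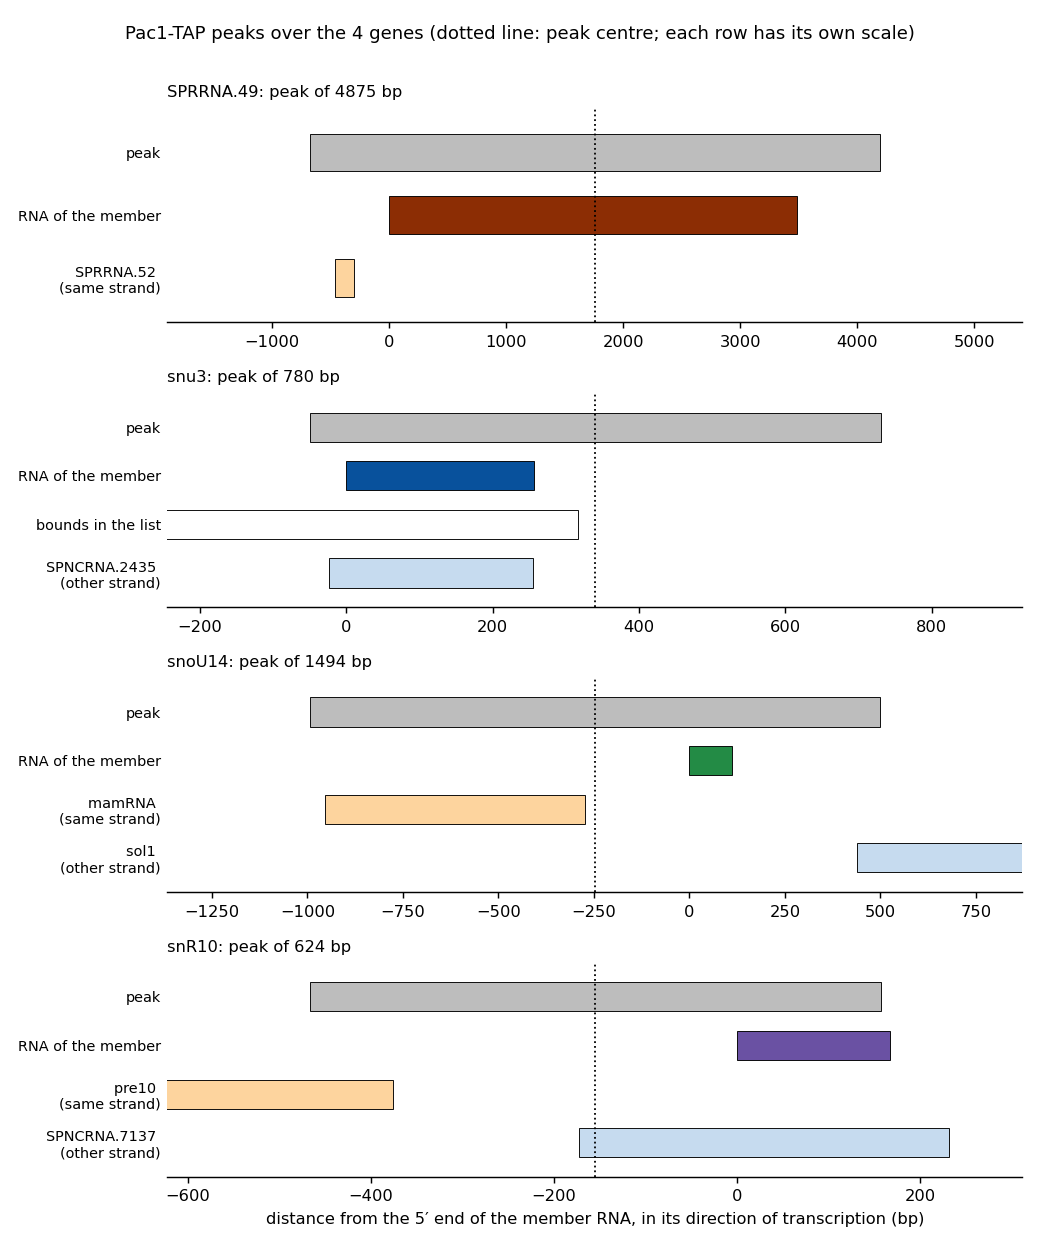
Position of each Pac1-TAP peak (grey) against the RNA of the named gene and the other annotated genes in the peak, with the distance from the 5′ end of the RNA in its direction of transcription on the x axis (bp); each panel has its own scale and bars are clipped at the panel edge. The called bounds of the rRNA peak are centred on its gene, and the snu3 peak is displaced toward the 3′ end. The centres of the snoU14 and snR10 peaks lie before the 5′ end, for snR10 on its annotated strand.

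Most of this peak was sequence that the genome holds more than once. The reads were 50 nt long, and 90.3% of the 4826 words of 50 nt in the peak occurred more than once in the assembly, the highest share of the 88 peaks; 75 peaks held no such word. All 3436 words of the 28S gene and all 116 words of the 5.8S gene were repeated. The spacers were less so. In the spacer before the 5.8S gene 71.7% of words were repeated, between the 5.8S and 28S genes 74.9%, and past the 28S gene 48.9%, where 338 of 661 words occurred once. The assembly has 3 genes of this length, and the other copies, SPRRNA.47 (III:6057-9541) and SPRRNA.48 (III:16927-20411), lie on the minus strand near the left end of the chromosome. Both were identical to SPRRNA.49 over all 3485 bases, and over the 710 bp past the gene each was 94.4% identical, with 3 mismatches and 38 gap bases. Neither overlapped a listed peak. The paper describes the rDNA as multi-copy repeats, and how far the assembly holds them was not examined. Reads within the repeated words cannot be placed on 1 copy, so that over the 28S gene itself the absence of a peak at the left copies and its presence at the right copy cannot be told apart from read placement. How the aligner placed such reads is not given in the sources used here.

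The end of the peak could be set against the polymerase chain reaction (PCR) amplicons that the study designed along the rDNA, which are named by their approximate distance in bp past the 28S gene. Of their 14 primers, 13 matched the right copy exactly, 8 of them whole inside the peak and 5 outside it. The amplicon in the 18S gene lay outside. The amplicon in the 28S gene, the 3′ ETS amplicon (28 bp before to 51 bp past the gene end) and the +250 amplicon (204 to 353 bp past it) lay whole inside. The forward primer of the +450 amplicon had 2 exact matches, at the left copies, and none at the right copy, while its reverse primer (495 to 515 bp past the gene) was inside. The peak ended within the +650 amplicon, between the primers printed here because they bracket that end:
+650 forward (III:2447824-2447843, plus strand): agtggtaaggtaggtcgtga
+650 reverse (III:2447912-2447931, minus strand): tgcactgcgttaaatccctc
The forward primer was whole inside the peak, 627 to 646 bp past the 28S gene, and the reverse primer was outside, 715 to 734 bp past it. The +850 amplicon, at 804 to 962 bp, lay outside.

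**Figure D2:**
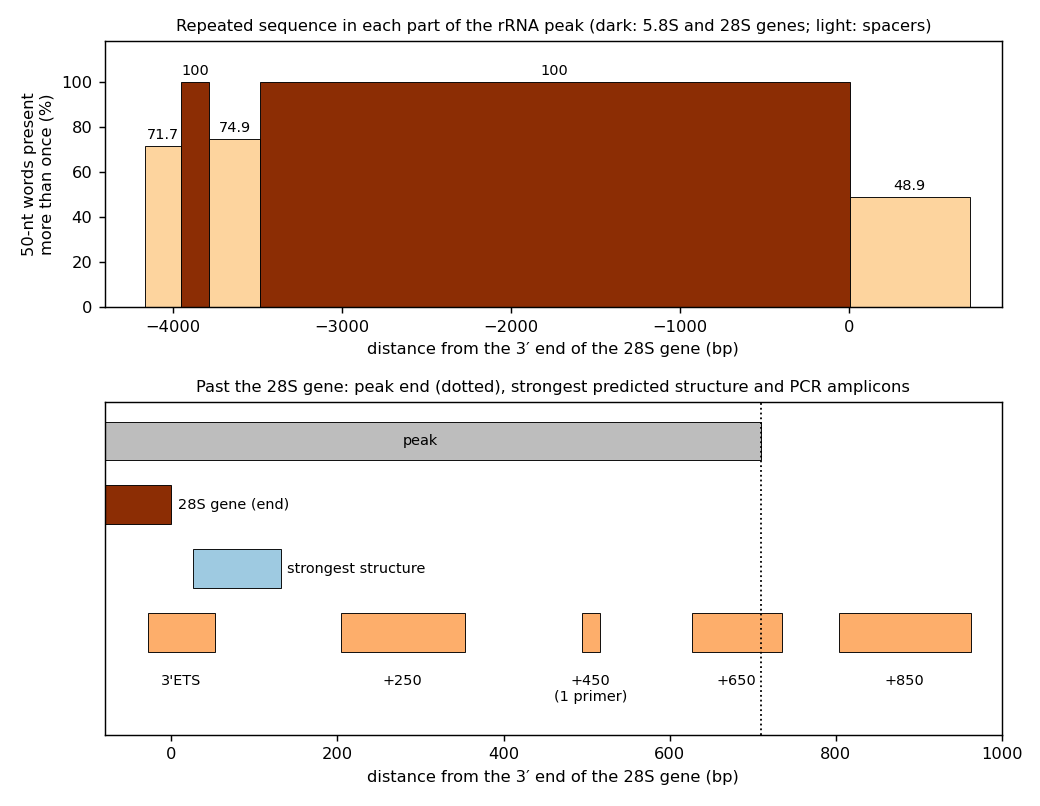
Top, share of 50-nt words that occur more than once in the genome (%) in each part of the rRNA peak, 100 in the 28S and 5.8S genes and 48.9 past the 28S gene, by distance from the 3′ end of the 28S gene (bp). Bottom, the region past the 28S gene with the peak end at 710 bp (dotted line), the strongest predicted RNA structure and the PCR amplicons; of the +450 pair only the reverse primer matched this copy.

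At snu3, which encodes the U3 RNA, the peak was narrow and lay mainly past the 3′ end of the RNA. It spanned I:987218-987997, 780 bp, with a listed p-value of 0, and 74 of the 88 peaks were wider. The place of the RNA itself had to be settled first, because the sources disagree. The list gives the gene as I:987631-988266 (636 bp, minus strand) and the reference annotation as I:987570-987825 (256 bp). Aligning the RNA of snu32, the other U3 gene of this genome, end to end with the region placed the U3 RNA at I:987692-987947, also 256 bp and displaced by 122 bp from the annotated bounds. The 2 RNAs so placed were 91.4% identical (234 bases alike, 21 mismatches, 1 gap base), whereas the 300 bp past the 3′ ends were 50.6% and the 300 bp before the 5′ ends 51.8% identical. All 41 repeated words of 50 nt in this peak (5.61% of its words) lay inside the snu3 RNA so placed, and all 41 were in the snu32 RNA. The bounds by alignment, chosen after the list had been read, were used for the sequence above and for the structures below.

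With these bounds the whole U3 RNA was in the peak, which reached 50 bp before its 5′ end and 474 bp past its 3′ end, and the centre of the peak lay 84.5 bp past the 3′ end. The offset of the centre from the middle of the gene, counted toward the 3′ end, was 212 bp with the bounds by alignment, 341 bp with those of the list and 90 bp with those of the annotation. All were on the 3′ side. With the bounds of the list, 57.7% of the gene was covered and the peak ended 269 bp short of its 5′ end. The list paired no other gene with this peak. In the reference annotation the long non-coding RNA SPNCRNA.2435 (I:987693-987971, plus strand) lay whole inside it, antisense to 255 bp of the U3 RNA. In all, 64.1% of the peak held no annotated gene. The nearest other peaks were 26443 bp before it, at seb1, a factor of 3′ end formation, and 194883 bp after it, at bip1, an endoplasmic reticulum chaperone.

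At snoU14 the peak extended far upstream of the RNA. It spanned II:1307640-1309133, 1494 bp, with a listed p-value of 0. The 112-bp gene, the same in the list and the annotation, was whole inside it but made up only 7.50% of it. The peak reached 994 bp before the 5′ end and 388 bp past the 3′ end, and its centre lay 247.5 bp before the 5′ end of the RNA, an offset of −303 bp from the middle of the gene. The list paired sol1 (SPBC30B4.04c, a subunit of the SWI/SNF chromatin remodelling complex, minus strand) with the same peak, through an overlap of 62 bp at its 3′ end, 326 bp past snoU14. The annotation places a second transcript on the upstream side, mamRNA, named for its association with Mmi1 and Mei2, which act in the control of meiotic transcripts. Its longer form (II:1307681-1308359, plus strand, 679 bp) was whole inside the peak, made up 45.4% of it and ended 274 bp before snoU14; the list did not hold it. Signal over mamRNA and signal over the 5′ side of snoU14 cannot be told apart from the bounds of 1 peak. Neither this peak nor that of snR10 held a repeated 50-nt word.

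The study's 2 hybridisation probes for this RNA both fell inside the peak. They are printed because they mark the precursor and the mature RNA.
snoU14 precursor probe (II:1308533-1308556, minus strand): aagtccaatctccaccataactcg
snoU14 mature probe (II:1308706-1308730, minus strand): aaggaaggactatgcacgacatctg
The precursor probe lay before the 5′ end of the RNA, from −101 to −78 bp, and each probe had 1 exact match in the genome. The values of the blots were not analysed here.

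At snR10 the peak was among the narrowest and stopped inside the RNA. It spanned III:991969-992592, 624 bp, and 82 of the 88 peaks were wider. Its listed p-value, 3.52e-266, was the only one of the 4 above 0, and 39 peaks had a lower one. The gene (167 bp, the same bounds in both sources) was covered over 157 bp, 94.0% of it, with the last 10 bp outside. On the strand given by both sources, the peak reached 467 bp before the 5′ end. Its centre then lay 155.5 bp before the 5′ end of the RNA and −238.5 bp from the middle of the gene. On the other strand these sides would swap. The list paired pre10 (SPCC1795.04c, a proteasome core subunit, plus strand) with the same peak, through the last 91 bp of that gene, which ends 376 bp before snR10. The annotation adds SPNCRNA.7137 on the minus strand, antisense to the whole of snR10, with 330 bp or 52.9% of the peak. Only 1373 bp before this peak another one ended (III:989400-990595), paired with map2, which encodes the P-factor mating pheromone, with SPCC1795.05c and with rrk1, the RNA of RNase P. By contrast the nearest peak after it was 317095 bp away.

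Compared with the peaks of the 12 other listed snoRNA genes, those of snoU14 and, on its annotated strand, snR10 had the longer reach on the other side of the RNA. Among the 12, the peak reached −13 to 487 bp (median 87.5) before the 5′ end and 172 to 736 bp (median 410) past the 3′ end, a negative value being a peak that stopped inside the RNA. The reach past the 3′ end was the longer one in 11 of the 12. The exception was snoZ16, with 487 bp before and 335 bp past the RNA, named after its values were seen. The list paired its peak also with mrp1 (I:1234451-1234849, plus strand), which lies on the 5′ side of snoZ16 (I:1234963-1235045, plus strand). The reach on that side thus took in another gene. snu3, with 50 and 474 bp by alignment, or 172 and 352 bp with annotated bounds, lay within the ranges of the 12 on both sides. snoU14, with 994 and 388 bp, had a longer reach on the 5′ side than any of them, and snR10, with 467 and −10 bp, had a shorter reach on the 3′ side than any of them. As at snoZ16, the reach on the 5′ side took in another gene, mamRNA at snoU14 and the end of pre10 at snR10. The values of snR10 hold for its annotated strand, which was not tested. On the other strand they would be −10 and 467 bp, within the ranges of the 12 on both sides. In width, 0 of the 12 had a wider peak than snoU14, 6 had a wider one than snu3 and 10 a wider one than snR10, over a range of 545 to 1042 bp (median 751). Over all 88 peaks the width ranged from 545 to 5433 bp (median 1378.5). With annotated bounds the centre of the peak lay inside the RNA at 3 of the 12 genes. It lay outside the RNA at snoU14 and snR10, while at snu3 it lay inside with annotated bounds and outside with the bounds by alignment or those of the list. These are differences of single peaks with no error, and since the peak calls chose the genes, none was tested.

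**Figure D3:**
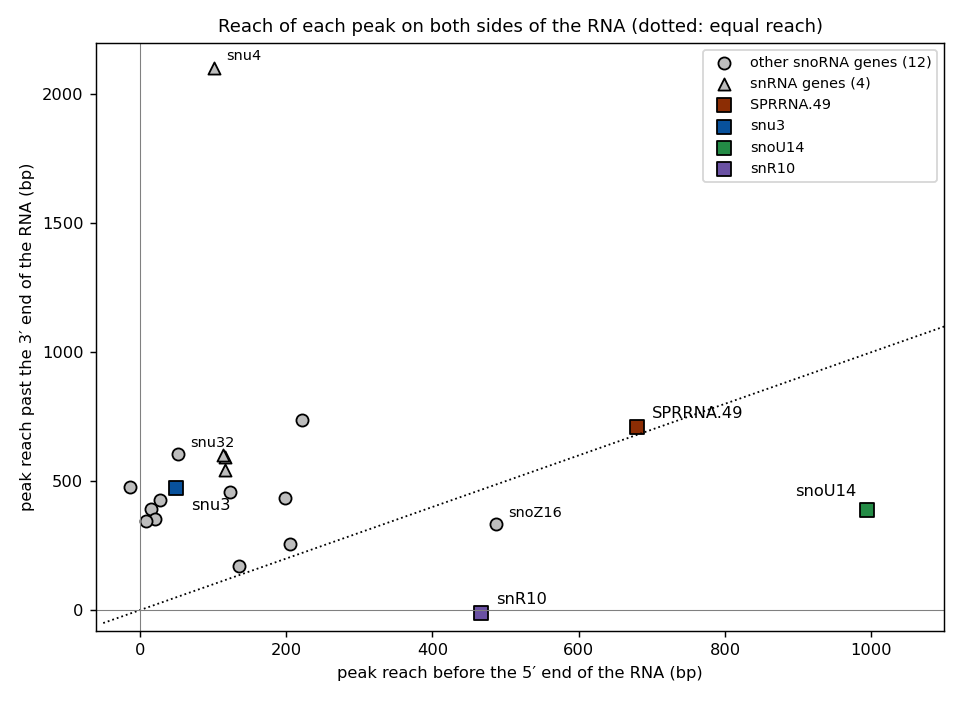
Reach of the peak before the 5′ end (x axis, bp) and past the 3′ end (y axis, bp) of the RNA for the 4 genes (squares), the 12 other listed snoRNA genes (circles) and 4 snRNA genes (triangles). Points above the dotted line have the longer reach on the 3′ side, and snu3 is among them. Below it lie snoU14 (994 and 388 bp), snR10 (467 and −10 bp, on its annotated strand) and, of the 12 others, snoZ16 (487 and 335 bp).

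Predicted RNA structures beside the RNAs were a measure that the choice of genes had not used. The strongest structure was taken as the one with the lowest folding energy among the local structures that RNALfold listed, with a span of at most 150 nt, in the 300 nt on each side of the RNA, on the transcribed strand. RNALfold lists closed structures 1 at a time and not every stretch, and what it lists depends on the stretch it is given, so that a listed energy is not the lowest that any stretch could reach. The same procedure was used for every gene. Past the 28S gene it was −35.1 kcal/mol, and 4 of the 66 annotated snoRNA genes had a lower energy past their 3′ end. It lay 25 nt past the gene, whole inside the peak (III:2447223-2447328, plus strand), with 38 base pairs in 1 unbranched stem. It is printed with the paired bases of that stem in capitals, since it lies in the 3′ ETS.
rRNA 3′ ETS: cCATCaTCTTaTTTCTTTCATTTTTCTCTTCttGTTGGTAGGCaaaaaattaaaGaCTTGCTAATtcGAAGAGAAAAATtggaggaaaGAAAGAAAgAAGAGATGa
On the 5′ side the strongest structure, −38.2 kcal/mol, lay in the spacer between the 5.8S and 28S genes, ended 53 nt before the 28S gene and had a stem of 52 pairs at a GC content of 21.3%.

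Past the U3 RNA of snu3 the lowest listed energy was −33.2 kcal/mol, and 7 of 65 other snoRNA genes were lower. A stem also began at the base right after the RNA. When the 100 nt past each RNA were folded as 1 piece, snu3 gave −27.4 kcal/mol, with 0 of the 65 other snoRNA genes lower. This reading was added after the data had been seen, and its energy covers all stems of the 100 nt. Over all 66 snoRNA genes, snu3 included, the range was −27.4 to −1.5 kcal/mol (median −10.75). The copy snu32 gave −23.9 kcal/mol, with 1 gene lower, which was snu3. The 2 stems are printed with paired bases in capitals because both had 26 base pairs although the sequences past the 2 RNAs were only 50.6% identical.
snu3 (I:987623-987691, minus strand): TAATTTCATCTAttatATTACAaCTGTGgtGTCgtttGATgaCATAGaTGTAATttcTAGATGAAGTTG
snu32 (II:3958766-3958828, minus strand): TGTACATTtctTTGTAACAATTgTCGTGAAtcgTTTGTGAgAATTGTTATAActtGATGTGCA
The snu3 stem started at base 1 past the RNA and the snu32 stem at base 4, and both lay whole inside their peaks. The values of snu3 rest on its bounds by alignment, while the other genes kept their annotated bounds. With the annotated bounds of snu3 this stem would lie inside the gene. A stem of more pairs was predicted in this stretch for 7 snoRNA genes. The paper also predicts stable hairpins past the 3′ ends of snu3 and snu32. It reports that RNAPII transcription ran on past both genes when Pac1 was kept out of the nucleus. Whether its hairpins are the stems printed here was not compared.

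At snoU14, and at snR10 on its annotated strand, no structure of this strength stood next to the 3′ end. All structures of snR10 were predicted on that strand, which was not tested. The first 100 nt past the RNA gave −5.9 kcal/mol at snoU14, where 58 of 65 others were lower, and −9.0 kcal/mol at snR10, where 39 were lower. The 100 nt before the 5′ ends were not folded in this way. There the paper predicts stable hairpins, at or shortly upstream of the mature 5′ end, for box C/D snoRNAs whose 5′-extended precursors accumulated on blots, snoU14 among them. On the 5′ side of snoU14 the strongest structure in 300 nt was −27.5 kcal/mol, near the median of all 66 snoRNA genes (−27.0), but its stem of 43 pairs was longer than that of all but 8 of the 65 others. It ended 93 nt before the RNA, inside the peak, in the gap between mamRNA and snoU14 (II:1308402-1308540, plus strand), and it is shown with paired bases in capitals because it lies on the side to which the peak extended.
snoU14 upstream: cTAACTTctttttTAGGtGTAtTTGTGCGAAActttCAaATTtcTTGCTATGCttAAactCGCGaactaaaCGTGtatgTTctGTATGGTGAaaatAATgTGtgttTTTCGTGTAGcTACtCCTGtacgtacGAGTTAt
Over the whole 994 bp of peak upstream of snoU14 the lowest listed energy was −40.8 kcal/mol, inside mamRNA (II:1307985-1308136). Upstream of snR10 the strongest structure in 300 nt was −17.3 kcal/mol, and 61 of the 65 others were lower; over the 467 bp of peak upstream it was −22.2 kcal/mol.

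**Figure D4:**
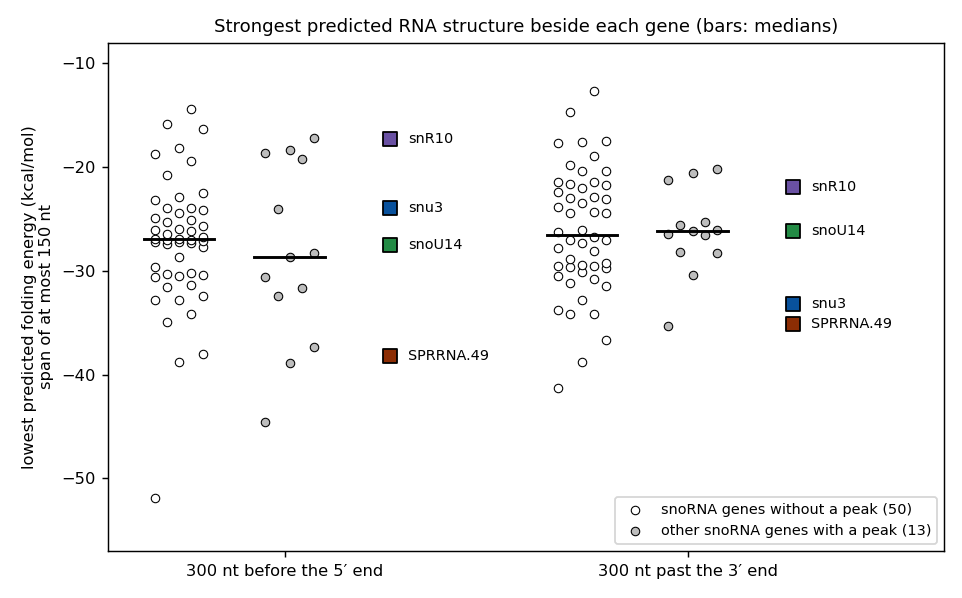
Lowest folding energy among the local structures listed by RNALfold (kcal/mol, span of at most 150 nt) in the 300 nt before the 5′ end and past the 3′ end of 50 snoRNA genes without a peak, 13 other snoRNA genes with a peak and the 4 genes described here; bars are medians. Past the 3′ end snu3 (−33.2) and SPRRNA.49 (−35.1) are below both medians and snR10 (−21.9, on its annotated strand) is above them.

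Over all annotated snoRNA genes the predicted structures of genes with and without a peak overlapped widely. Past the 3′ end the energies were −35.3 to −20.2 kcal/mol (median −26.2) at 13 other snoRNA genes that overlapped a peak and −41.3 to −12.7 kcal/mol (median −26.5) at 50 without one. The 13 were the 12 other listed snoRNA genes and SPNCRNA.1394, which the annotation classes as a snoRNA gene and which encloses snR3 in the same peak. Before the 5′ end the medians were −28.7 and −26.95 kcal/mol.

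The other RNAs and the proteins of pre-rRNA processing were looked up in the same list. As the background, 155 of 6870 annotated genes overlapped a peak (2.26%). The share was 24.2% of snoRNA genes (16 of 66) and 4.26% of nuclear rRNA genes (2 of 47), these being SPRRNA.49 and the 5.8S gene in its peak. The 16 count snR3 and the enclosing SPNCRNA.1394 as separate genes. Among 6 RNAs of pre-rRNA processing all 6 had a peak, but 3 of them are the snoRNA genes chosen for it. The other 3 were snu32 (912 bp, listed p-value 0), snR30, an H/ACA RNA needed for 18S production in budding yeast (781 bp, 1.34e-294), and mrp1, the RNA of RNase MRP, which in budding yeast cuts an internal spacer (905 bp, 0). The peak of mrp1 is the same one as that of snoZ16 above. These are on the list of RNAs because of their known roles, put together with the peak list known. Of the proteins, 0 of 8 genes for core proteins of box C/D and H/ACA particles had a peak, 0 of 15 for the U3 particle and early processing factors, 0 of 8 for RNA polymerase I subunits, and 0 of 6 for nucleases of rRNA maturation, pac1 itself included. At a background of 2.26%, counts of 0 among lists of this size are not a result about the lists.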

How the data were processed

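ChIP-seq reads (50 nt, single-end) were, per the study's methods, trimmed with Trimmomatic (reads of at least 36 nt kept) and mapped with HISAT2 to assembly ASM294v2. The authors called peaks with MACS2 on each Pac1-TAP replicate against its input and combined both with MSPC into the deposited list, whose unit is a combined p-value per peak. Duplicate reads were kept. The methods state that the rRNA peak depended on this, because read coverage saturated over the multi-copy rDNA repeats. The list holds 173 rows, 88 peaks and 172 gene-peak pairs. The 4 genes and all lists were chosen with earlier results of these data known.

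From the list, peak width, the offset of the peak centre from the middle of the gene, the reach past both ends and the genes sharing a peak (at least 1 bp) were computed with Python 3.11.15 and pandas 2.3.3. The reference was RefSeq ASM294v3. Of 167 systematic gene names in the list (1 of the 166 gene IDs stands for 2) 153 were found at the same place on the same strand, 53 of them with identical bounds, SPRRNA.49, snoU14 and snR10 among these. For snu3 the nearest genes sharing a bound with the reference lay 24991 bp before (seb1) and 194696 bp after (bip1) the peak. A total of 5736 long non-coding RNA genes numbered SPNCRNA.2000 and above were left out of background counts but not of peak contents. The snu3 RNA was placed by global alignment (Biopython 1.88). Structures were predicted with RNALfold and, for the 100 nt folded as 1 piece, the minimum free energy fold of ViennaRNA 2.7.2, and the structure search was tested on simulated sequences with planted hairpins. Named genes were the 4 genes, every gene in their peaks, genes of the nearest peaks and list members with a peak. Named outside this rule were snoZ16, snR3, SPNCRNA.1394 and the rRNA genes without a peak. No test was run, since the values chose the genes and have no replicates. Alternatives were a listed p-value of at most 1e-200, an overlap of 50 bp, peak centres only, annotated bounds, peak starts counted from 0, 36-nt words and spans of 100 and 200 nt, with 3 more added after the data were seen. The depth per library is unknown. RNAPII libraries were not analysed here.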

Additional observations from a re-analysis of the deposited data

How the results depend on the processing

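Of 66 alternative values for 31 results, 36 stayed within 1 bp, 1 percentage point, 1 kcal/mol or 1.5 times a count, and 30 moved. The 4 genes kept their peaks at a listed p-value of at most 1e-200, at an overlap of 50 bp and with annotated bounds, while with the bounds of the list only 1 gene, SPRRNA.49, held the centre of its peak; with annotated bounds snu3 did as well. The widths and offsets moved by at most 1 bp when peak starts were counted from 0. The offset at snu3, 341 bp by the list, was 90 bp with annotated bounds and 212 bp with the bounds by alignment. Counting genes of the reference annotation instead of the list gave 1 other gene in place of 0 in the peaks of SPRRNA.49 and snu3, and 2 in place of 1 in those of snoU14 and snR10. Words of 36 nt raised the repeated share to 93.2% at SPRRNA.49 and 7.38% at snu3.

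The lowest energies listed by RNALfold moved with the span. With spans of 100 and 200 nt they were −29.3 and −41.5 kcal/mol before and −32.1 and −44.6 kcal/mol past SPRRNA.49, −17.5 and −36.2 before snu3, −17.3 and −39.6 before and −14.4 and −28.7 past snoU14, and −11.4 and −24.8 before and −14.0 and −30.2 past snR10. Past snu3 a span of 100 nt gave −24.6 kcal/mol, and 200 nt left −33.2, while the whole stretch of the peak on that side, which holds the same 300 nt, gave −32.5. The whole stretch of the peak upstream gave −40.8 at snoU14 and −22.2 kcal/mol at snR10. The first 100 nt past the gene, folded whole and so with all stems added, gave −24.4 at SPRRNA.49, −27.4 at snu3, −5.9 at snoU14 and −9.0 kcal/mol at snR10; the value at snu3 is below the −24.6 listed for a single structure of at most 100 nt. No paired analysis was possible because each peak has 1 p-value for both Pac1-TAP replicates together; leaving out a replicate was not run for the same reason.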
